A study of Saccharomyces cerevisiae with 16 samples.

Results

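The comparison described here set yeast cells treated with NEM against control cells, across the measured genes of Saccharomyces cerevisiae. It took 8 of the 16 arrays of the study, the 4 titled as NEM treated and the 4 titled as control, and the array titles assigned them. The NEM cultures received 0.016 mM NEM for 1 h, and the other group is labelled control. All cultures were the haploid laboratory strain BY4741, labelled wild type, grown in rich glucose medium (YEPD) at 30 °C with shaking at 250 rpm and taken in early exponential phase. BY4741 carries deletions of marker genes for uracil, leucine, histidine and methionine synthesis, and both groups share them. The other 8 arrays came from cultures given 0.05 mM acrolein or 0.3 mM H2O2 for 1 h. The labels give only the abbreviation NEM, which is read here as N-ethylmaleimide. Total RNA was labelled and hybridised to Affymetrix yeast arrays, on which a probe set of short oligonucleotides reports each transcript. Of the 5449 S. cerevisiae genes with a named probe set, 5404 varied on the arrays and were tested, together with 367 probe sets without a gene name, 5771 in all.

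N-ethylmaleimide is an alpha,beta-unsaturated imide that alkylates the thiol groups of cysteine, in glutathione and in proteins. Yeast cells conjugate such electrophiles to glutathione and export the conjugates, and they reduce activated double bonds with NADPH-dependent enzymes. The transcription factor Yap1 carries reactive cysteines near its nuclear export signal, and their modification keeps it in the nucleus, where it raises genes of thiol metabolism, reduction and drug efflux. Cysteine for glutathione comes from inorganic sulfate through the sulfate assimilation pathway, whose genes are under Met4. Cysteine thiols also hold the zinc ions and iron-sulfur clusters of many proteins.

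Values are GCRMA log2 signals, and a difference of 1 is a 2-fold change. Differences are given as NEM minus control with the standard error of the linear model (limma, n = 4 arrays per group), and a gene was called at a Benjamini-Hochberg adjusted p under 0.05 over all 5771 probe sets. Signals are scaled within each array, so they show transcript levels relative to the other transcripts and not amounts per cell. Whether arrays of 1 group stem from separate cultures is not in the labels, and the p-values therefore reflect only the scatter of these arrays, possibly technical. The brightest probe set for another yeast species reached 5.15, used as a background limit, and where no array of a group exceeded it the fold was computed against it and is written as at least N-fold.

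The median signal of an array lay at 11.86 to 11.89 in the NEM group and at 11.87 to 11.89 in the control group. Ribosomal RNA signal averaged 11.54 ± 1.57 in the NEM arrays and 10.61 ± 1.30 in the control arrays (SD, n = 4; exact permutation p = 0.4, two-sided, smallest possible 0.0286), and was lowest in replicate 4 of each group. Within replicate numbers it was higher with NEM in 4 of 4 pairs (exact sign-flip permutation p = 0.125, two-sided, the smallest possible). The 3′ minus 5′ signal over 7 transcripts averaged 0.66 ± 0.03 in the NEM arrays and 0.63 ± 0.06 in the control arrays (exact permutation p = 0.4). URA3 and MET17, deleted from the strain, held the minimum of the data on all 16 arrays, and LEU2 did on these 8. HIS3 read 11.75, 11.52, 11.47 and 11.69 in the NEM arrays, against 11.51, 11.12, 11.06 and 11.22 in the control arrays; its deletion in this strain is partial, so a probe set outside the deleted stretch checks nothing. BY4741 is of mating type a, and the a-cell markers MFA1 and STE2 were at 13.05 ± 0.17 and 12.78 ± 0.13 in the NEM arrays and at 12.80 ± 0.06 and 13.29 ± 0.06 in the control arrays (SD, n = 4). Of the 6 a-cell markers tested 0 rose, 4 fell, STE2 among them, and 2 were not called, with a median difference of -0.43. Of the alpha-cell markers, STE3, the a-factor receptor, read 4.44, 5.14, 5.08 and 5.07 in the NEM arrays, against 6.24, 7.59, 7.22 and 7.34 in the control arrays, and SAG1, the alpha-agglutinin, read 11.81, 11.82, 11.77 and 11.97 in the NEM arrays, against 10.83, 10.79, 10.87 and 10.84 in the control arrays. MF(ALPHA)1 and MF(ALPHA)2, which encode the alpha-factor pheromone, were at or beside the lowest value of the data on all 8 arrays. STE3 was above the background limit on the control arrays and under it on the NEM arrays, and SAG1 was well above it in both, unlike the alpha-factor genes. Of 7 diploid and sporulation markers 0 rose and 4 fell. The part of this in the results below was not tested.

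At the threshold used, most probe sets were called different between the NEM and control arrays, mostly by small amounts. Of the 5771 probe sets 3388 were called (58.7%), 1527 upward (26.5%) and 1861 downward (32.2%), and the counts of list members below stand against these shares. At the stricter adjusted p under 0.01, 1194 were called upward and 1520 downward. Lists and members were chosen with earlier results of these data known, so their counts are descriptions and not tests. Among the 5404 named genes 1480 rose and 1773 fell. The median size of a called change was 0.50 among named genes, and 623 of them changed at least 2-fold, 254 upward and 369 downward. At least 4-fold changes numbered 63 upward and 88 downward, and at least 16-fold changes 9 upward and 14 downward. For 3149 probe sets (54.6%) the ranges of the 4 NEM and the 4 control arrays did not overlap. All 623 genes changed by 2-fold or more moved the same way within each of the 4 replicate numbers, and 3195 of all 3253 called genes did so. Over the 623 genes, the change of each NEM array was 0.96 to 1.04 times that of the other 3, and no NEM array stood apart in the size of its response. These genes were chosen by their differences on the same arrays. The agreement of arrays and replicate numbers is thus partly built in and is no separate check.

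**Figure D1:**
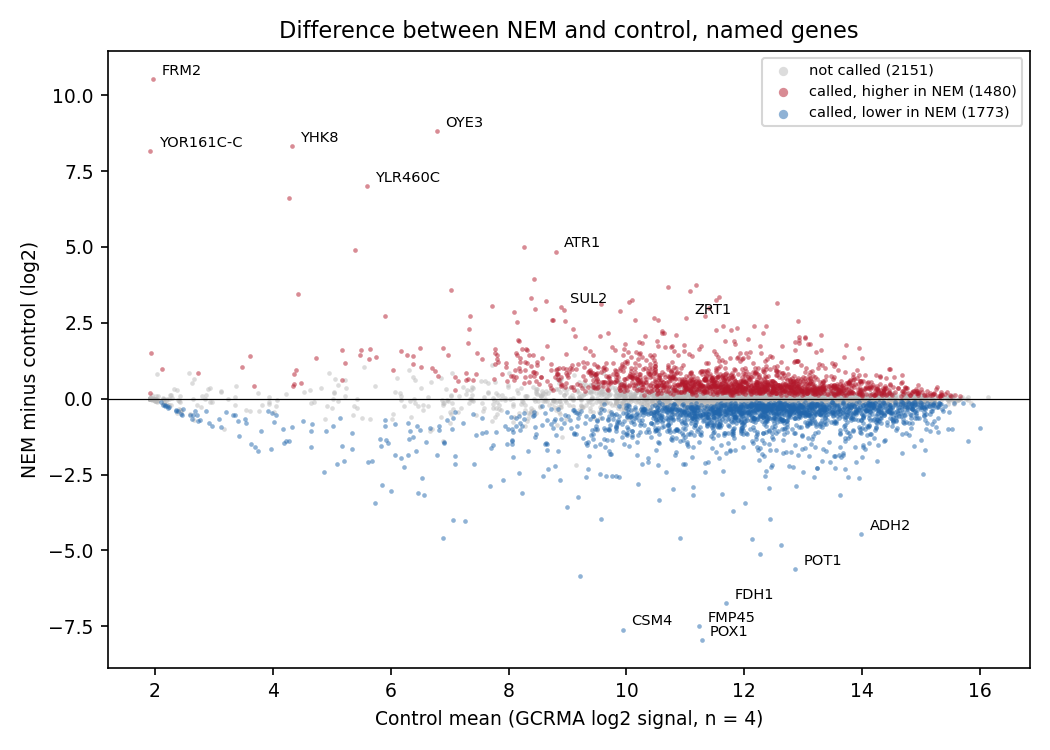
Difference between NEM and control (log2, mean of 4 arrays minus mean of 4 arrays) against the control mean (GCRMA log2 signal) for the 5404 named genes, 1 point per gene, coloured by the limma call. FRM2, YOR161C-C, OYE3 and YHK8 stand out upward and POX1, CSM4 and FMP45 downward, with differences of 8 or more upward and over 7 downward.

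The 15 largest increases included reductases, a glutathione transferase and membrane transporters. They and the 15 largest decreases were drawn from called genes whose arrays did not overlap. Separation of the NEM and control arrays was thus a condition of entry. OYE3 encodes an old yellow enzyme, which uses NADPH to reduce the double bond of unsaturated carbonyl compounds. Its signal was 15.67, 15.64, 15.55 and 15.55 in the NEM arrays, against 7.28, 6.25, 6.67 and 6.96 in the control arrays, a rise of 8.81 ± 0.16 (adjusted p = 2e-13), with the NEM signals close to the top of the scale, where array signals can be compressed. Every NEM array lay far above every control array. FRM2, a nitroreductase-like gene, read 12.63, 12.43, 12.55 and 12.45 in the NEM arrays, against 1.97, 1.93, 2.04 and 1.95 in the control arrays. The control arrays were at or beside the lowest value of the file, so FRM2 was at least 165-fold higher with NEM (adjusted p = 4.92e-13). YHK8, a presumed drug transporter, read 12.58, 12.65, 12.58 and 12.72 in the NEM arrays, against 4.06, 4.31, 4.42 and 4.49 in the control arrays, at least 179-fold higher (adjusted p = 1.21e-14). YOR161C-C, a short open reading frame, was at the lowest value on all control arrays and at 9.61, 10.45, 9.89 and 10.40 on the NEM arrays, at least 30.6-fold higher.

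Open reading frames of the quinone oxidoreductase type, YLR460C and YCR102C, followed. YLR460C read 12.75, 12.58, 12.66 and 12.40 in the NEM arrays, against 4.96, 5.33, 5.98 and 6.10 in the control arrays, a rise of 7.004 ± 0.20. YCR102C read 13.37, 13.10, 13.26 and 13.26 in the NEM arrays, against 7.89, 8.14, 8.51 and 8.49 in the control arrays, a rise of 4.99 ± 0.12. For neither did the groups come near each other. YKL070W, an open reading frame of unknown function, read 11.27, 10.68, 11.04 and 10.57 in the NEM arrays, against 4.03, 3.77, 5.28 and 4.03 in the control arrays, and control replicate 3 was the highest of its control arrays, just above the background limit. ATR1, an efflux pump of the plasma membrane, read 13.71, 13.76, 13.62 and 13.49 in the NEM arrays, against 8.77, 8.48, 8.67 and 9.26 in the control arrays, a rise of 4.85 ± 0.14 (adjusted p = 7.86e-12). TAH18, a diflavin reductase that passes electrons to cytosolic iron-sulfur assembly, read 12.62, 12.33, 12.35 and 12.21 in the NEM arrays, against 8.35, 8.26, 8.91 and 8.19 in the control arrays, a rise of 3.95 ± 0.15. HXT9, of the hexose transporter family, rose by 4.91 ± 0.25, but its probe set matches several transcripts of near-identical transporters, so the gene is uncertain. Others among the 15 largest increases were GTT2, a glutathione transferase, at 3.75 ± 0.07, YRR1, a zinc-cluster activator of drug efflux genes, at 3.67 ± 0.08, SPS100, a spore wall gene, at 3.59 ± 0.21, and YLL056C, an open reading frame, at 3.55 ± 0.10. YOL024W read 7.42, 8.14, 7.33 and 8.70 in the NEM arrays, against 4.17, 4.29, 4.64 and 4.63 in the control arrays, at least 6.73-fold higher.

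**Figure D2:**
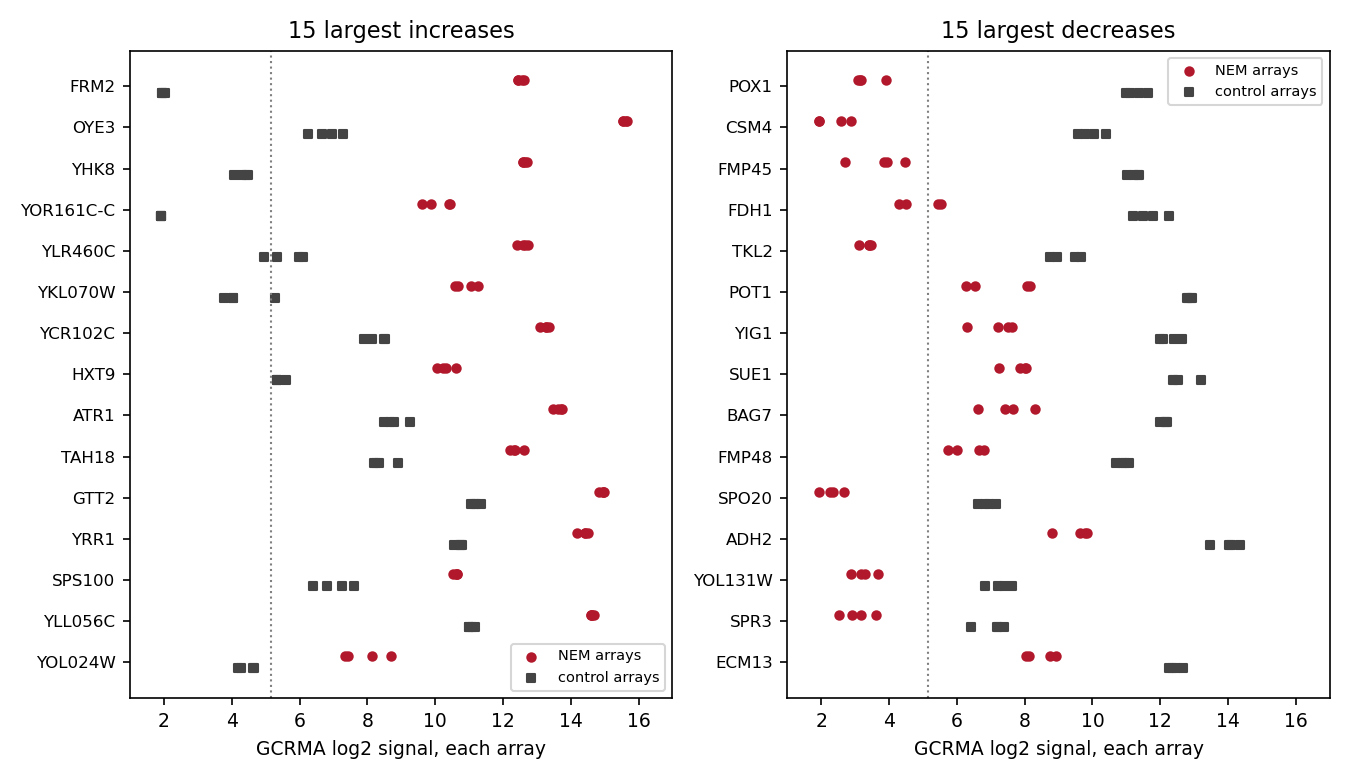
GCRMA log2 signal of each NEM array (circles, upper row of each gene) and each control array (squares, lower row) for the 15 largest increases (left) and the 15 largest decreases (right), with the background limit of 5.15 as a dotted line. The groups do not overlap in any of these genes, which were chosen so, and the NEM arrays of POX1, CSM4, FMP45, TKL2, SPO20, YOL131W and SPR3 all lie under the limit.

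Reductases of activated double bonds, quinones and nitro compounds rose as a group. Of 14 tested, 11 rose and 1 fell, with a median of 1.71 against -0.01 over all probe sets. OYE2, the other old yellow enzyme, read 15.59, 15.62, 15.56 and 15.67 in the NEM arrays, against 14.04, 13.89, 13.92 and 13.95 in the control arrays, a rise of 1.66 ± 0.05. HBN1, the partner of FRM2 in the nitroreductase family, rose by 1.77 ± 0.07, and YNL134C, an NADPH-dependent aldehyde reductase, by 2.09 ± 0.06. LOT6, a flavin-dependent quinone reductase of the cytosol, went the other way, at 8.93, 8.11, 8.56 and 8.25 in the NEM arrays, against 11.72, 11.61, 11.42 and 11.72 in the control arrays, a difference of -3.15 ± 0.14. Among 5 aryl-alcohol dehydrogenases 3 rose, AAD6 by 3.18 ± 0.19, AAD3 by 2.17 ± 0.11 and AAD4 by 2.04 ± 0.07, and AAD10 and AAD14 fell. Members of this family share long stretches of sequence, so probe sets may not separate them fully.

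Alcohol dehydrogenase counts were near the shares over all probe sets, and aldehyde dehydrogenases fell more often. Of 11 alcohol dehydrogenase genes 2 rose and 4 fell. SFA1, which oxidises the glutathione adduct of formaldehyde, rose by 2.01 ± 0.05, and ADH6, an NADPH-dependent reductase of aldehydes, by 1.18 ± 0.05. ADH2, which oxidises ethanol and is repressed by glucose, read 8.81, 9.65, 9.79 and 9.83 in the NEM arrays, against 13.46, 14.08, 14.36 and 14.02 in the control arrays, a difference of -4.46 ± 0.34 with no overlap. XYL2, xylitol dehydrogenase, fell by 2.99 ± 0.24 and BDH2, related to butanediol dehydrogenase, fell by 1.69 ± 0.09. Of 8 aldehyde dehydrogenases 0 rose and 6 fell, with ALD3 at -1.496 ± 0.17 and ALD5 at -0.81 ± 0.08. The list of aldo-keto reductases and methylglyoxal genes gave 5 up and 6 down of 13 tested. GRE2, a methylglyoxal reductase and Yap1 target, rose by 2.55 ± 0.09 and HSP31, a glyoxalase of the DJ-1 family, by 2.41 ± 0.07, and GLO2, the cytosolic glyoxalase II, fell by 2.10 ± 0.09.

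The listed targets of Yap1, chosen with earlier results of these data known, rose almost throughout. Of 20 tested, 19 rose and 1 fell, with a median of 1.74. FLR1, a drug transporter, read 14.96, 14.90, 14.79 and 14.97 in the NEM arrays, against 11.59, 11.37, 11.70 and 11.62 in the control arrays, a rise of 3.34 ± 0.07. ECM4, a glutathione transferase of the omega class, rose by 3.16 ± 0.09 and SRX1, sulfiredoxin, by 3.12 ± 0.09. YCF1, the vacuolar pump that takes up glutathione conjugates, read 14.80, 14.88, 14.69 and 14.71 in the NEM arrays, against 12.90, 12.89, 12.96 and 12.99 in the control arrays, a rise of 1.84 ± 0.06 (adjusted p = 4.84e-11). GSH1, the first and limiting enzyme of glutathione synthesis, read 14.81, 14.87, 14.87 and 15.02 in the NEM arrays, against 13.16, 13.00, 12.89 and 13.24 in the control arrays, a rise of 1.82 ± 0.08 (adjusted p = 2.67e-10). GSH2, the following enzyme, was the member that fell, at 12.14, 12.31, 12.18 and 12.37 in the NEM arrays, against 12.95, 12.93, 13.10 and 13.13 in the control arrays, a difference of -0.77 ± 0.08. At the low end AHP1 rose by 0.11 ± 0.04 and TSA1 by 0.20 ± 0.03, peroxiredoxins whose control signals of 15.36 ± 0.05 and 15.34 ± 0.02 (SD, n = 4) lie close to the top of the scale. The call of AHP1 was lost without NEM replicate 2 or 4 or control replicate 1 or 3 (adjusted p = 0.0507 to 0.0648).

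The factors of the Yap family themselves moved in both directions, 4 up and 4 down of 8. YAP1 read 13.32, 13.51, 13.29 and 13.70 in the NEM arrays, against 12.44, 12.39, 12.60 and 12.74 in the control arrays, a rise of 0.91 ± 0.16 (adjusted p = 0.000227). YAP7 rose by 2.08 ± 0.12. CIN5 (also called Yap4), linked to salt and osmotic stress, read 8.59, 8.01, 8.57 and 7.68 in the NEM arrays, against 11.10, 11.34, 11.22 and 10.87 in the control arrays, a difference of -2.92 ± 0.19, and YAP6 fell by 1.51 ± 0.15.

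Among 26 tested genes of glutathione metabolism and glutaredoxins 14 rose and 6 fell. Beyond those named, GPX2, a glutathione peroxidase, rose by 2.41 ± 0.11, GRX8, a glutaredoxin, by 1.58 ± 0.08, and OPT1, the plasma membrane transporter of glutathione, by 1.49 ± 0.08. DUG2 and DUG3, whose complex degrades glutathione, rose by 1.37 ± 0.05 and 1.23 ± 0.05. GPX1 fell by 2.27 ± 0.14 and GTO3, a cytosolic omega-class transferase, fell by 1.49 ± 0.39. GLR1, glutathione reductase, rose by 0.70 ± 0.04. In the thioredoxin and peroxiredoxin list 8 of 13 rose and 4 fell. TRR1, cytosolic thioredoxin reductase, rose by 0.93 ± 0.09 and TRX2, its substrate, by 0.33 ± 0.03, and the mitochondrial pair TRR2 and TRX3 changed by -0.20 ± 0.06 and -0.38 ± 0.12. Without NEM replicate 1 neither TRR2 nor TRX3 was called (adjusted p = 0.0525 and 0.0598), and without control replicate 2 TRX3 was not (adjusted p = 0.0632). CCS1, which loads copper into superoxide dismutase, rose by 2.04 ± 0.08. Of the catalase genes, the cytosolic CTT1 fell by 1.64 ± 0.11 and the peroxisomal CTA1 fell by 1.11 ± 0.20.

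Multidrug efflux genes changed unevenly, 16 up and 8 down of 33. YRR1 read 14.41, 14.52, 14.19 and 14.41 in the NEM arrays, against 10.57, 10.72, 10.75 and 10.79 in the control arrays, well separated, and YRM1, its paralogue, rose by 0.73 ± 0.07. SNQ2, an ABC pump, rose by 1.60 ± 0.06, PDR16, a phosphatidylinositol transfer protein, by 1.505 ± 0.12 and AQR1, an exporter of acids and amino acids, by 1.01 ± 0.21. PDR1 and PDR3, the main activators of pump genes, rose by 0.91 ± 0.10 and 0.71 ± 0.08, whereas PDR5, their best known target pump, rose by 0.22 ± 0.07. TPO3, a polyamine exporter, fell by 1.33 ± 0.35, PDR11, a sterol uptake ABC protein, fell by 1.19 ± 0.19 and QDR1 fell by 0.83 ± 0.12.

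The sulfate assimilation, methionine and cysteine genes rose together. Of 35 tested members of the list of 36, 28 rose, 1 fell and 6 were not called, with a median of 0.96. The permeases stand at the head of the pathway. SUL2, a sulfate permease, read 11.95, 12.21, 11.68 and 11.81 in the NEM arrays, against 9.02, 9.02, 8.45 and 9.09 in the control arrays, a rise of 3.02 ± 0.19 (adjusted p = 1.89e-08). SUL1, the other high-affinity sulfate permease, read 9.10, 9.53, 10.14 and 9.74 in the NEM arrays, against 7.10, 7.11, 7.63 and 7.50 in the control arrays, a rise of 2.29 ± 0.33 (adjusted p = 4.48e-05). In both genes all NEM arrays lay above all control arrays.

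The enzymes that carry sulfate to sulfide rose as well. MET3, ATP sulfurylase and the first step, read 14.20, 14.54, 14.44 and 14.37 in the NEM arrays, against 12.62, 12.64, 12.72 and 12.56 in the control arrays, a rise of 1.75 ± 0.08 (adjusted p = 5.54e-10). MET14, the kinase of the following step, rose by 1.80 ± 0.08, and MET16, the reductase that uses thioredoxin, by 2.40 ± 0.06. MET5 and MET10, the subunits of sulfite reductase, rose by 1.94 ± 0.06 and 1.01 ± 0.06. MET1 and MET8 make its siroheme cofactor, and they rose by 1.98 ± 0.06 and 3.22 ± 0.21. MET8 read 11.65, 11.80, 11.91 and 12.07 in the NEM arrays, against 8.90, 8.31, 8.33 and 9.02 in the control arrays, with the groups far apart. Downstream, MET2 rose by 1.13 ± 0.05, CYS3, which makes cysteine from cystathionine, by 0.98 ± 0.05 and CYS4, the enzyme before it, by 0.50 ± 0.04. MET17, which fixes sulfide into homocysteine, is deleted in the strain.

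The regulators of the pathway differed among themselves. MET28 and MET32, DNA-binding partners of Met4, rose by 1.58 ± 0.11 and 1.24 ± 0.08, and MET30, the ubiquitin ligase subunit that restrains Met4, by 0.99 ± 0.09. MET4 itself was not called, at 0.06 ± 0.07 (adjusted p = 0.446). CBF1, another partner of Met4, was the member that fell, at -0.31 ± 0.12, a call lost without NEM replicate 1, 2 or 3 or control replicate 1 or 4 (adjusted p = 0.0692 to 0.118). Methionine permeases rose too, MUP3 by 1.88 ± 0.09 and MUP1 by 0.67 ± 0.06.

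**Figure D3:**
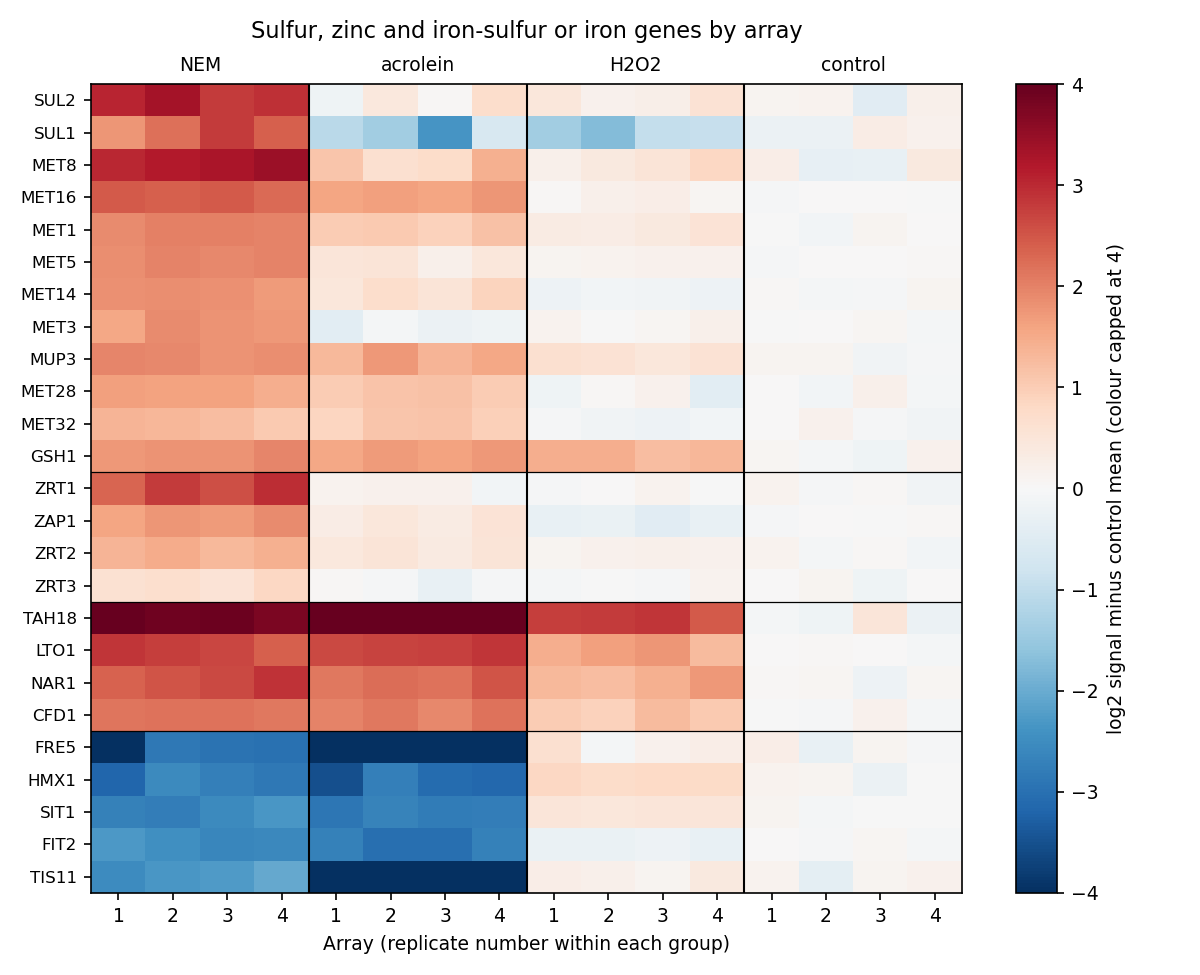
GCRMA log2 signal minus the control mean for 25 genes (rows) on all 16 arrays (columns, replicates 1 to 4 of NEM, acrolein, H2O2 and control), with colour capped at a difference of 4 either way. SUL2, SUL1, MET3 and the zinc genes ZRT1, ZAP1, ZRT2 and ZRT3 are higher on the 4 NEM arrays than on all others, the 4 iron-sulfur assembly genes shown are raised on all treated arrays, and the iron regulon genes at the foot are lowered on the NEM and acrolein arrays.

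Zinc genes moved in both directions, with zinc transporter genes among the rises. ZRT1, the high-affinity zinc transporter of the plasma membrane, read 13.35, 13.80, 13.59 and 13.96 in the NEM arrays, against 11.15, 10.96, 11.07 and 10.87 in the control arrays, a rise of 2.66 ± 0.11 (adjusted p = 3.26e-10). ZAP1, the zinc-sensing activator of these genes, read 12.12, 12.30, 12.25 and 12.42 in the NEM arrays, against 10.49, 10.55, 10.53 and 10.59 in the control arrays, a rise of 1.73 ± 0.07. ZRT2, the low-affinity transporter, rose by 1.39 ± 0.06, and ZRT3, which releases zinc from the vacuole, by 0.67 ± 0.08. The groups did not overlap in any of these 4. Of 13 tested zinc genes 5 rose and 5 fell, with a median of -0.13. IZH1, a membrane protein of zinc homeostasis, fell by 1.57 ± 0.27, and COT1 and ZRC1, which carry zinc into the vacuole, changed by -0.96 ± 0.09 and -0.27 ± 0.05. ADH4 and ZPS1, further targets of Zap1, were not called, at -0.12 ± 0.07 (adjusted p = 0.176) and -0.13 ± 0.09 (adjusted p = 0.236), though ADH4 was without NEM replicate 3 (adjusted p = 0.0329).

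Iron uptake genes fell and cytosolic iron-sulfur assembly genes rose. Among iron regulon genes 19 of 32 fell and 8 rose, with a median of -0.44. HMX1, heme oxygenase, read 7.02, 7.66, 7.47 and 7.35 in the NEM arrays, against 10.35, 10.31, 9.96 and 10.18 in the control arrays, a difference of -2.82 ± 0.16 (adjusted p = 4.44e-09). FRE5, of the ferric reductase family, fell by 3.23 ± 0.34, SIT1, a siderophore transporter, fell by 2.59 ± 0.08 and FIT2, a mannoprotein that retains siderophore iron, fell by 2.49 ± 0.08. FET3 and FTR1, the oxidase and permease of high-affinity iron uptake, changed by -1.41 ± 0.11 and -1.33 ± 0.08. TIS11 (CTH2), which degrades transcripts of iron-using proteins, fell by 2.30 ± 0.15. Of the activators, AFT1 fell by 0.44 ± 0.08 and AFT2 rose by 1.28 ± 0.13.

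Of 10 cytosolic iron-sulfur assembly genes 7 rose and 1 fell, with a median of 1.46. Beside TAH18, LTO1 rose by 2.67 ± 0.11, NAR1 by 2.60 ± 0.13, CFD1 by 2.15 ± 0.08, DRE2, the partner of TAH18, by 1.54 ± 0.05, CIA2 by 1.38 ± 0.08 and NBP35 by 1.25 ± 0.08. NAR1 read 12.90, 13.06, 13.17 and 13.42 in the NEM arrays, against 10.58, 10.61, 10.33 and 10.63 in the control arrays, with no overlap. MET18 fell by 0.33 ± 0.11. In heme biosynthesis 4 of 11 rose and 4 fell. PUG1, a plasma membrane protein of heme and porphyrin transport, rose by 3.06 ± 0.13 and HEM3, porphobilinogen deaminase, by 1.84 ± 0.28. Copper genes gave 1 up and 4 down of 10 tested, with CTR3, a copper transporter, at -1.18 ± 0.21, and 8 were called with array weights and 8 in the paired fit of the NEM and control arrays alone.

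Heat shock chaperone genes changed by small amounts. Of 32 heat shock chaperone genes 16 rose and 5 fell, and the median was 0.12. The largest rises were CUR1, a sorting factor, at 1.08 ± 0.14, YDJ1, an Hsp40, at 1.01 ± 0.07 and AHA1, an activator of Hsp90, at 0.90 ± 0.07. HSF1, the heat shock factor, rose by 0.78 ± 0.14. SSA4, the heat-induced Hsp70, read 14.81, 14.64, 14.59 and 14.50 in the NEM arrays, against 15.15, 15.15, 15.12 and 15.19 in the control arrays, a difference of -0.52 ± 0.06, and HSP104, the disaggregase, fell by 0.13 ± 0.05, a call lost without NEM replicate 3 or 4 or control replicate 3 (adjusted p = 0.0813 to 0.0936).

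Proteasome genes rose by small amounts, 28 up and 6 down of 44, with a median of 0.18. RPN4, their activator, read 14.58, 14.58, 14.52 and 14.54 in the NEM arrays, against 13.85, 13.84, 13.84 and 13.84 in the control arrays, a rise of 0.71 ± 0.04. ECM29, an assembly factor, rose by 0.56 ± 0.06, RPT3, a base ATPase, by 0.52 ± 0.06 and PUP1, a catalytic-core subunit, by 0.44 ± 0.09. NAS6, a base chaperone, fell by 1.85 ± 0.08 and PRE9, an alpha-ring subunit, fell by 0.63 ± 0.05. In the ubiquitin list 15 of 26 rose and 3 fell. DOA4, a ubiquitin-recycling protease, rose by 0.98 ± 0.08, and the conjugating enzyme gene UBC5 fell by 2.40 ± 0.16. Genes of folding in the endoplasmic reticulum fell more often than they rose, 13 down and 4 up of 24. SIL1, a nucleotide exchange factor of Kar2, fell by 1.86 ± 0.08 and FPR2, a prolyl isomerase, fell by 1.75 ± 0.11. ERO1, the thiol oxidase that drives disulfide formation there, rose by 0.95 ± 0.12, and PDI1, which passes those disulfides on, was not called at 0.01 ± 0.04 (adjusted p = 0.862). INO1, in the same list and known for inositol synthesis, fell by 1.47 ± 0.25.

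**Figure D4:**
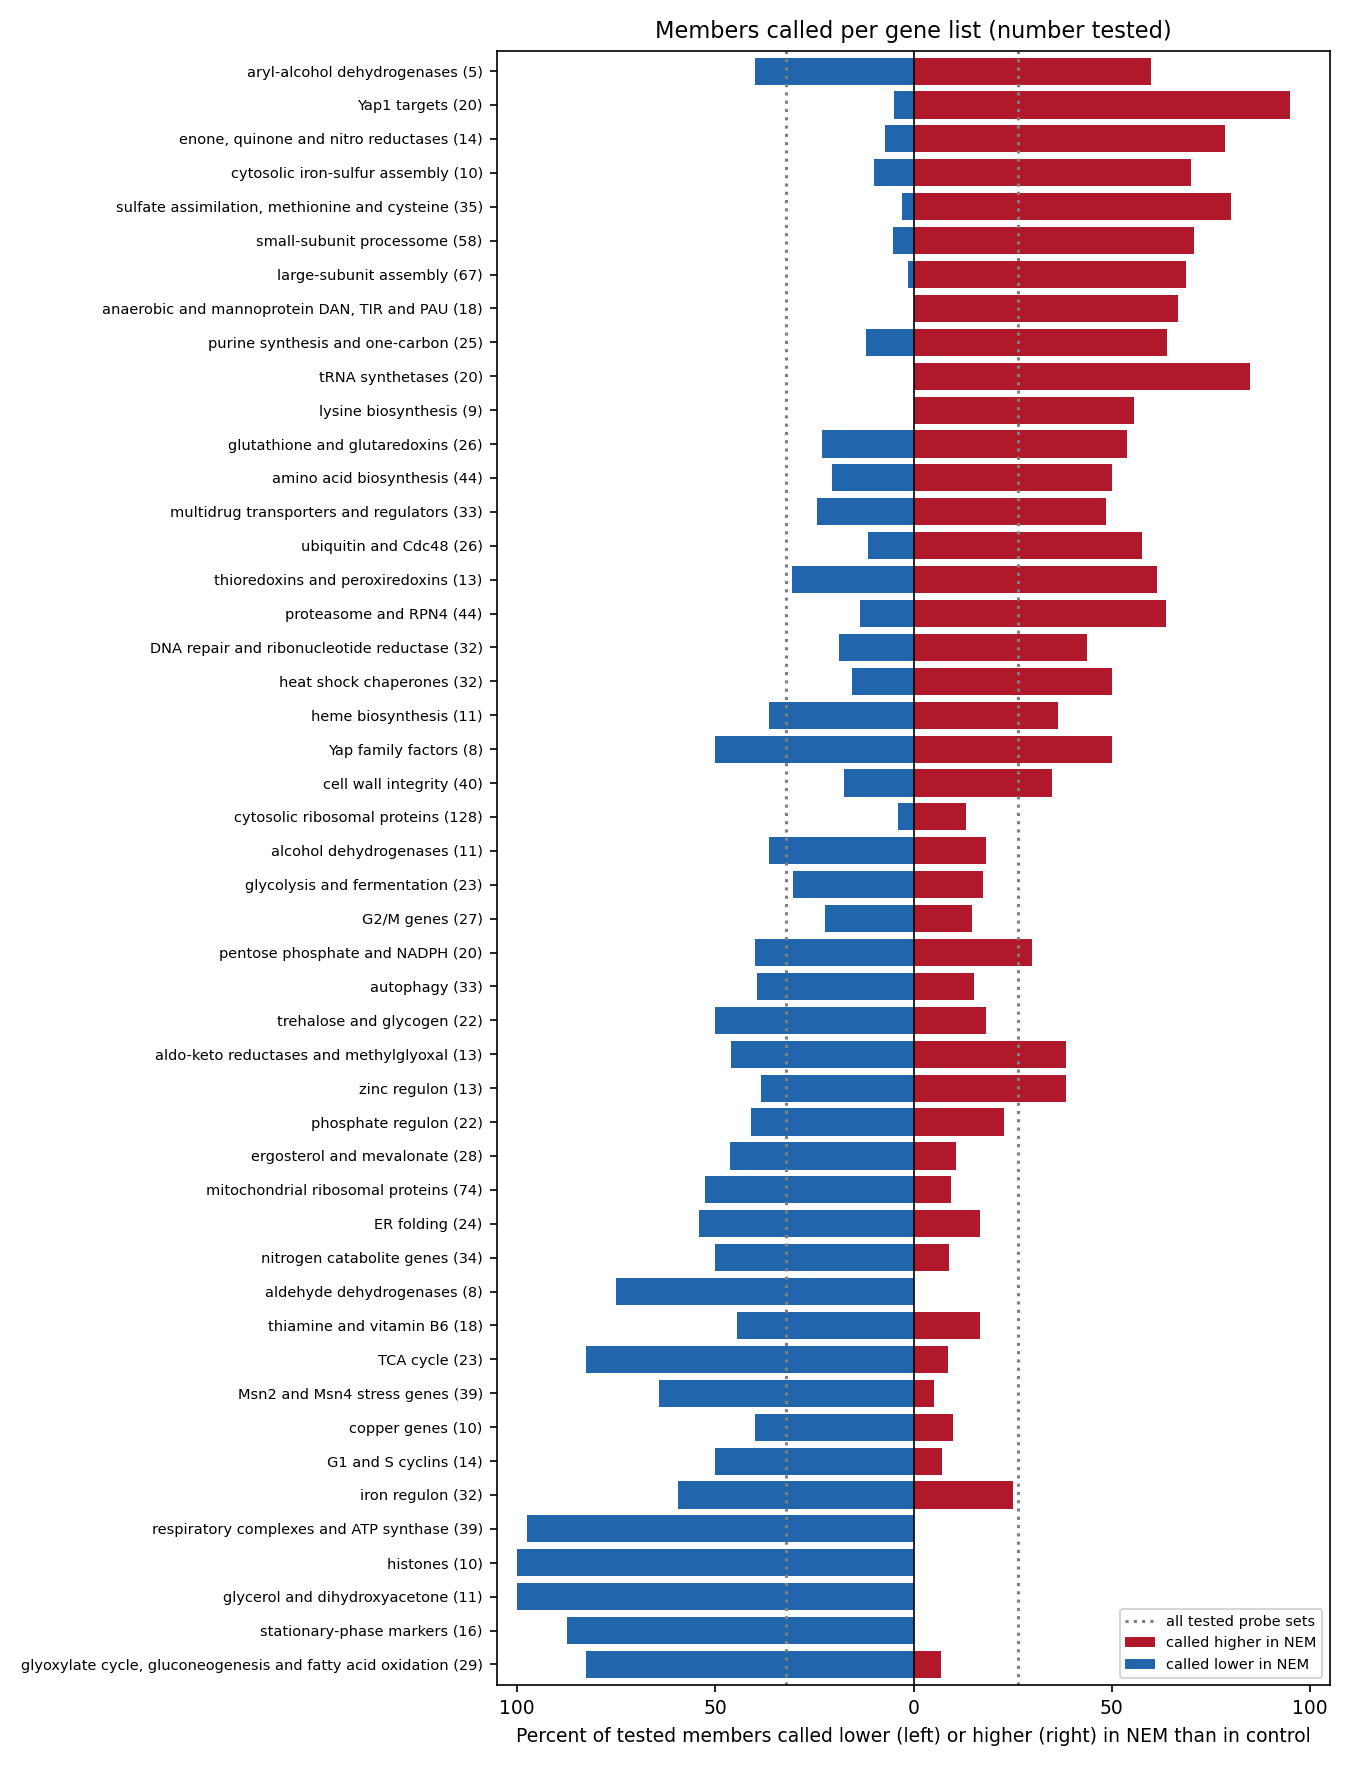
Percent of tested members called higher (right, red) and lower (left, blue) in the NEM arrays than in the control arrays for each gene list, ordered by median difference, with the number tested in brackets and the shares over all probe sets (26.5% and 32.2%) dotted. Yap1 targets and sulfate genes lie among the upper bars and respiratory, glycerol and histone genes among the lower ones.

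The deepest falls were in fatty acid oxidation and in a set of scattered genes. POX1, acyl-CoA oxidase and the first enzyme of peroxisomal beta-oxidation, read 3.15, 3.08, 3.92 and 3.18 in the NEM arrays, against 11.38, 10.99, 11.63 and 11.11 in the control arrays, at least 70-fold lower with NEM (adjusted p = 1.51e-06). POT1, the thiolase that ends each cycle of the pathway, read 6.27, 6.54, 8.17 and 8.06 in the NEM arrays, against 12.94, 12.78, 12.90 and 12.83 in the control arrays, a difference of -5.60 ± 0.39. FMP45, a membrane protein of the Sur7 family of eisosomes, read 2.71, 4.48, 3.86 and 3.95 in the NEM arrays, against 11.02, 11.37, 11.35 and 11.22 in the control arrays, at least 68.2-fold lower. In all 3 genes every NEM array lay under every control array, which the choice of these genes required.

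CSM4 and YIG1, neighbours on the genome by their locus names YPL200W and YPL201C, both fell. CSM4, known for chromosome movement in meiosis, read 1.94, 2.58, 2.89 and 1.92 in the NEM arrays, against 9.56, 10.04, 10.40 and 9.78 in the control arrays, at least 27.8-fold lower. YIG1, which interacts with glycerol phosphatase, read 7.22, 7.62, 7.51 and 6.30 in the NEM arrays, against 11.99, 12.63, 12.40 and 12.08 in the control arrays, a difference of -5.11 ± 0.30. FDH1, formate dehydrogenase, read 5.43, 4.50, 5.54 and 4.30 in the NEM arrays, against 11.79, 11.49, 12.26 and 11.21 in the control arrays (adjusted p = 7.45e-10). NEM replicates 2 and 4 lay under the background limit and the other NEM arrays just above it, so no fold is given. TKL2, a minor transketolase of the pentose phosphate pathway, was at least 16.7-fold lower. SUE1, a mitochondrial protein needed to degrade unstable cytochrome c, fell by 4.84 ± 0.24 and FMP48, a protein of the mitochondrial proteome, fell by 4.60 ± 0.21. ECM13 fell by 3.97 ± 0.36. Genes of meiosis and sporulation with low control signals were also among the 15 deepest falls, SPO20 at least 3.34-fold lower and SPR3 at least 3.75-fold lower.

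Glyoxylate cycle, gluconeogenesis and fatty acid oxidation genes fell as a list, 24 of 29 tested, with 2 up and a median of -1.34. DCI1 and SPS19, peroxisomal enzymes for unsaturated fatty acids, changed by -2.43 ± 0.21 and -2.37 ± 0.11. FBP1, fructose bisphosphatase of gluconeogenesis, fell by 2.40 ± 0.30, and ICL1 and MLS1 of the glyoxylate cycle changed by -1.42 ± 0.27 and -1.45 ± 0.38. PCK1, phosphoenolpyruvate carboxykinase of gluconeogenesis, went the other way at 14.11, 14.64, 14.39 and 14.64 in the NEM arrays, against 12.39, 13.28, 12.98 and 12.76 in the control arrays, a rise of 1.59 ± 0.24 (adjusted p = 8.71e-05).

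Respiratory genes fell almost without exception. Of 39 tested genes for the respiratory complexes and ATP synthase, 38 fell and 0 rose, with a median of -0.53. The exception, ATP1, was not called at -0.13 ± 0.06 (adjusted p = 0.0765), but was without NEM replicate 4 (adjusted p = 0.047). HAP4, the activator subunit for these genes, read 11.28, 12.15, 11.53 and 11.80 in the NEM arrays, against 13.26, 13.41, 13.32 and 13.35 in the control arrays, a difference of -1.65 ± 0.16. NDE1 and NDE2, the external NADH dehydrogenases, changed by -1.35 ± 0.06 and -3.17 ± 0.43, INH1, the ATP synthase inhibitor, fell by 1.54 ± 0.15 and COX4, a subunit of cytochrome oxidase, fell by 1.03 ± 0.08. In the TCA cycle 19 of 23 fell and 2 rose. IDP2, the cytosolic NADP-linked isocitrate dehydrogenase, fell by 3.18 ± 0.22, CIT3, a mitochondrial citrate synthase, fell by 2.19 ± 0.34 and ACO1, aconitase, fell by 0.96 ± 0.14. MAE1, malic enzyme, rose by 0.70 ± 0.16. Mitochondrial ribosomal proteins gave 39 down and 7 up of 74, with a median of -0.18.

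Glycerol and dihydroxyacetone genes fell, 11 of 11, with a median of -0.76. GPD2 and GPP1, which make glycerol from a glycolytic intermediate, changed by -1.17 ± 0.16 and -1.14 ± 0.13. STL1, a glycerol importer, read 3.46, 3.40, 3.40 and 3.34 in the NEM arrays, against 5.70, 6.88, 6.40 and 7.26 in the control arrays, at least 2.66-fold lower. Pentose phosphate and NADPH genes were mixed, 6 up and 8 down of 20. ZWF1, the entry enzyme that makes NADPH, read 14.89, 14.98, 14.80 and 15.20 in the NEM arrays, against 14.57, 14.32, 14.47 and 14.54 in the control arrays, a rise of 0.49 ± 0.12, and POS5, the mitochondrial NADH kinase, rose by 0.90 ± 0.08. NQM1, a transaldolase, fell by 1.92 ± 0.16 beside TKL2. Among glycolysis and fermentation genes 4 of 23 rose and 7 fell, 12 were not called, and the median was -0.03.

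General stress genes fell. Of 39 tested genes under Msn2 and Msn4, 25 fell and 2 rose, with a median of -0.39. HSP12, a small membrane-associated stress protein, read 14.86, 15.16, 15.28 and 14.78 in the NEM arrays, against 15.94, 16.02, 15.997 and 16.003 in the control arrays, a difference of -0.97 ± 0.09. XBP1, a stress-induced repressor, fell by 1.54 ± 0.48 and PHM7 fell by 2.29 ± 0.19. MSN4 fell by 1.47 ± 0.12 and MSN2 fell by 0.17 ± 0.05, a call lost without NEM replicate 3 (adjusted p = 0.0522). Of 16 tested markers of stationary phase 14 fell and 0 rose, led by FMP16 at -2.60 ± 0.10 and SIP18 at -2.56 ± 0.30. In the trehalose and glycogen list 11 of 22 fell and 4 rose, with GLG2, a glycogenin, at -1.20 ± 0.18 and TPS1, trehalose phosphate synthase, not called at 0.07 ± 0.07 (adjusted p = 0.426).

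Nitrogen catabolite genes fell more often than they rose, 17 down and 3 up of 34 tested. DAL2, allantoicase, read 10.05, 10.23, 10.29 and 10.30 in the NEM arrays, against 12.18, 12.51, 12.07 and 12.23 in the control arrays, a difference of -2.03 ± 0.10. DUR3, a urea and polyamine permease, fell by 1.64 ± 0.16, MEP1, an ammonium permease, fell by 1.68 ± 0.14 and PUT4, a proline permease, fell by 1.54 ± 0.50, a call lost without NEM replicate 1 (adjusted p = 0.0586). DAL81, an activator of catabolic genes, rose by 0.93 ± 0.14. Among amino acid biosynthesis genes 22 of 44 rose and 9 fell. The 9 that fell were ILV5 at -1.86 ± 0.13, CPA1, a carbamoyl phosphate synthetase subunit of arginine synthesis, at -1.21 ± 0.06, ILV2 at -1.12 ± 0.10, BAT1 at -1.004 ± 0.09, ILV3 at -0.70 ± 0.13, LEU1 at -0.63 ± 0.05, LEU4 at -0.47 ± 0.05, HIS2 at -0.26 ± 0.06 and GCN4, the activator of these genes, at -0.23 ± 0.03. ILV2, ILV3, ILV5, BAT1, LEU1 and LEU4 encode enzymes of branched-chain amino acid synthesis. ARO2, chorismate synthase, rose by 1.42 ± 0.09 and SER33, the first enzyme from glycolysis to serine, by 1.21 ± 0.04. Of 25 tested purine and one-carbon genes 16 rose and 3 fell, with GCV2 and GCV1 of the glycine cleavage system at 1.23 ± 0.12 and 1.02 ± 0.11 and their activator BAS1 at 1.15 ± 0.22.

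Ribosome assembly genes rose, and ribosomal protein genes mostly did not pass the test. Of 58 small-subunit processome genes 41 rose and 3 fell, with a median of 0.72. Of 67 large-subunit assembly genes 46 rose and 1 fell, with a median of 0.71. RSA4, a late assembly factor of the large subunit, read 8.79, 8.40, 8.67 and 8.58 in the NEM arrays, against 5.80, 5.35, 6.91 and 5.53 in the control arrays, a rise of 2.72 ± 0.36. UTP14 of the processome rose by 1.91 ± 0.24, DBP10, an RNA helicase, by 2.06 ± 0.19 and RPA190, the largest subunit of RNA polymerase I, by 1.36 ± 0.19. Of 128 tested cytosolic ribosomal protein genes 17 rose, 5 fell and 106 were not called, with a median of 0.01. With the replicate number as a block, 34 of them were called. Many of these genes are near-identical pairs, which the probe sets may not separate. Of 20 tested tRNA synthetase genes 17 rose and 0 fell, WRS1 for tryptophan by 0.76 ± 0.07 and MES1 for methionine by 0.68 ± 0.10.

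Histone genes fell, 10 of 10 tested, with a median of -0.63. HTA2, encoding histone H2A, read 14.54, 14.55, 14.57 and 14.44 in the NEM arrays, against 15.50, 15.52, 15.59 and 15.48 in the control arrays, a difference of -0.996 ± 0.08. In bulk cultures, fewer cells in a stage of the cycle and less of a transcript per cell cannot be told apart. Of 14 cyclin and start genes 1 rose and 7 fell, with CLN1, a G1 cyclin, at -1.01 ± 0.37 and PCL9 at -1.29 ± 0.14. The call of CLN1 was lost without NEM replicate 1 or 3 or control replicate 1, 2 or 4 (adjusted p = 0.0505 to 0.0948). CLN2, the paralogue of CLN1, was not called at -0.05 ± 0.18 (adjusted p = 0.841). Genes of the G2/M list gave 4 up and 6 down of 27 tested, with CLB1, a mitotic cyclin, at -1.05 ± 0.18, its paralogue CLB2 not called at -0.29 ± 0.19 (adjusted p = 0.207), and ASE1, a spindle midzone protein, higher at 12.81, 12.77, 12.79 and 13.00 in the NEM arrays, against 10.46, 10.62, 10.61 and 10.74 in the control arrays, a rise of 2.24 ± 0.14. DNA repair and ribonucleotide reductase genes gave 14 up and 6 down of 32 tested. RNR3, the DNA damage-induced subunit of ribonucleotide reductase, read 11.04, 11.40, 11.25 and 11.79 in the NEM arrays, against 9.46, 8.60, 8.94 and 9.37 in the control arrays, a rise of 2.28 ± 0.23 (adjusted p = 1.56e-06), and RNR1, the paralogue of RNR3, rose by 0.82 ± 0.15. HUG1, another damage-induced gene, was not called at -0.78 ± 0.33 (adjusted p = 0.0598), but was with the replicate number as a block over all 16 arrays and without NEM replicate 3 (adjusted p = 0.0126).

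NEM was then set against the other treatments directly, to see where its profile differed. Doses differed between the compounds, so the differences rank neither potency nor specificity, and the comparisons with control share the control arrays. Against acrolein 2885 of 5771 probe sets were called (50.0%), 1491 higher and 1394 lower with NEM, and 237 differed at least 2-fold. Against H2O2 3023 were called (52.4%), 1450 higher and 1573 lower with NEM, and 495 differed at least 2-fold. A probe set was counted as particular to NEM where it was called against control, acrolein and H2O2 in the same direction. The count does not ask that the other treatments left the gene unchanged, so it can include genes that they moved less far. FLR1, counted so, was only 0.35 higher with NEM than with acrolein. That held for 1133 of 5771 (19.6%), 518 higher (8.98%) and 615 lower (10.7%). Acrolein replicate 1 stood apart in its RNA checks, with a ribosomal RNA signal of 15.48 against 4.38 to 12.64 on the other 15 arrays and a 3′ minus 5′ signal of 1.20 against 0.60 to 0.78. Without it 1272 probe sets were higher and 1325 lower with NEM than with acrolein, and 464 higher and 620 lower were particular to NEM. Without it and NEM replicate 4, 1093 were higher and 1158 lower than with acrolein. No gene given a value against acrolein below gained or lost its call without acrolein replicate 1.

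Sulfate uptake and its first enzyme set NEM apart. SUL2 read 11.95, 12.21, 11.68 and 11.81 with NEM, against 8.72, 9.32, 8.95 and 9.60 with acrolein and 9.36, 9.05, 9.14 and 9.46 with H2O2, differences of 2.77 ± 0.19 and 2.66 ± 0.19 (adjusted p = 2.57e-07 and 9.67e-08). SUL1 differed by 3.67 ± 0.33 from acrolein and by 3.54 ± 0.33 from H2O2. MET3 read 14.20, 14.54, 14.44 and 14.37 with NEM, against 12.22, 12.55, 12.40 and 12.46 with acrolein and 12.77, 12.62, 12.73 and 12.85 with H2O2, differences of 1.98 ± 0.08 and 1.64 ± 0.08. In all 3 genes the NEM arrays lay above every array of both other treatments, which for SUL1 was a condition of its choice among the largest differences. Over all probe sets the arrays did not overlap for 40.3% against acrolein and for 46.5% against H2O2. Of the 35 tested sulfate, methionine and cysteine genes 23 were higher and 5 lower than with acrolein, and 25 were higher and 1 lower than with H2O2. Without acrolein replicate 1, 19 were higher and 3 lower than with acrolein. ZRT1 differed by 2.57 ± 0.11 from acrolein and by 2.64 ± 0.11 from H2O2, and ZAP1 by 1.33 ± 0.07 and 2.07 ± 0.07.

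Some of the leading increases did not pass the test against acrolein or were lower with NEM. OYE3 differed from acrolein by 0.13 ± 0.16 (adjusted p = 0.527; 95% interval -0.22 to 0.49; both groups close to the top of the scale), YHK8 by -0.18 ± 0.12 (adjusted p = 0.218) and GTT2 by 0.16 ± 0.07 (adjusted p = 0.0727). YCR102C and YLR460C were lower with NEM than with acrolein, with differences of -1.52 ± 0.12 and -1.19 ± 0.20. FRM2 was higher with NEM, at 12.63, 12.43, 12.55 and 12.45 against 11.68, 11.62, 11.74 and 11.78 with acrolein and 6.75, 7.70, 6.51 and 6.20 with H2O2, differences of 0.81 ± 0.22 and 5.73 ± 0.22. YRR1 and SNG1, a gene of nitrosoguanidine resistance, were higher with NEM than with either treatment, YRR1 by 0.72 ± 0.08 and 2.98 ± 0.08 and SNG1 by 0.77 ± 0.08 and 2.79 ± 0.08.

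Several deep falls set NEM apart from both other treatments. FMP45 read 2.71, 4.48, 3.86 and 3.95 with NEM, against 8.98, 10.75, 10.19 and 10.49 with acrolein and 11.21, 9.73, 10.76 and 11.52 with H2O2, and was at least 31-fold lower with NEM than with acrolein. FMP48 read 5.73, 6.65, 6.79 and 6.01 with NEM, against 11.10, 11.53, 11.31 and 11.03 with acrolein and 11.28, 11.15, 10.90 and 10.74 with H2O2, a difference of -4.94 ± 0.21 from acrolein (adjusted p = 3.43e-09). POT1 differed by -4.10 ± 0.39 from acrolein and by -6.19 ± 0.39 from H2O2, and CIN5 by -2.94 ± 0.19 and -4.85 ± 0.19. YGL041C-B, an open reading frame, was high on the acrolein arrays, at 5.45, 5.36, 6.11 and 3.53 with NEM, 11.85, 11.94, 11.88 and 11.72 with acrolein and 7.73, 7.99, 8.41 and 7.11 with H2O2, against 8.26, 8.45, 8.40 and 7.77 in the control arrays.

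Nitrogen catabolite and G2/M genes were mostly higher with NEM than with acrolein. Of 34 nitrogen catabolite genes 20 were higher and 6 lower, and 18 and 5 without acrolein replicate 1. DAL80, a repressor of nitrogen catabolite genes, read 10.85, 11.13, 10.98 and 11.72 with NEM, against 2.41, 2.02, 2.41 and 2.46 with acrolein, at least 65-fold higher. Against control, however, DAL80 was called lower with NEM. That call was lost without NEM replicate 1 or 3 or control replicate 4, at -0.66, -0.71 and -0.61 (limma adjusted p = 0.0587 to 0.0779). No gene of the nitrogen list was above control by more than 0.93. MEP2, an ammonium permease, differed by 4.37 ± 0.19 from acrolein. Of the 27 G2/M genes 21 were higher and 0 lower than with acrolein, with a median of 0.72 against 0.00 over all probe sets, and without acrolein replicate 1 the counts were 20 and 1. Ribosomal protein genes were lower than with acrolein, 90 of 128, and 0 were higher, with a median of -0.33, and without acrolein replicate 1 the counts were 76 and 0. Small-subunit processome genes were lower than with acrolein in 23 of 58 and higher in 0 (15 and 0 without acrolein replicate 1), and higher than with H2O2 in 21 and lower in 4.

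**Figure D5:**
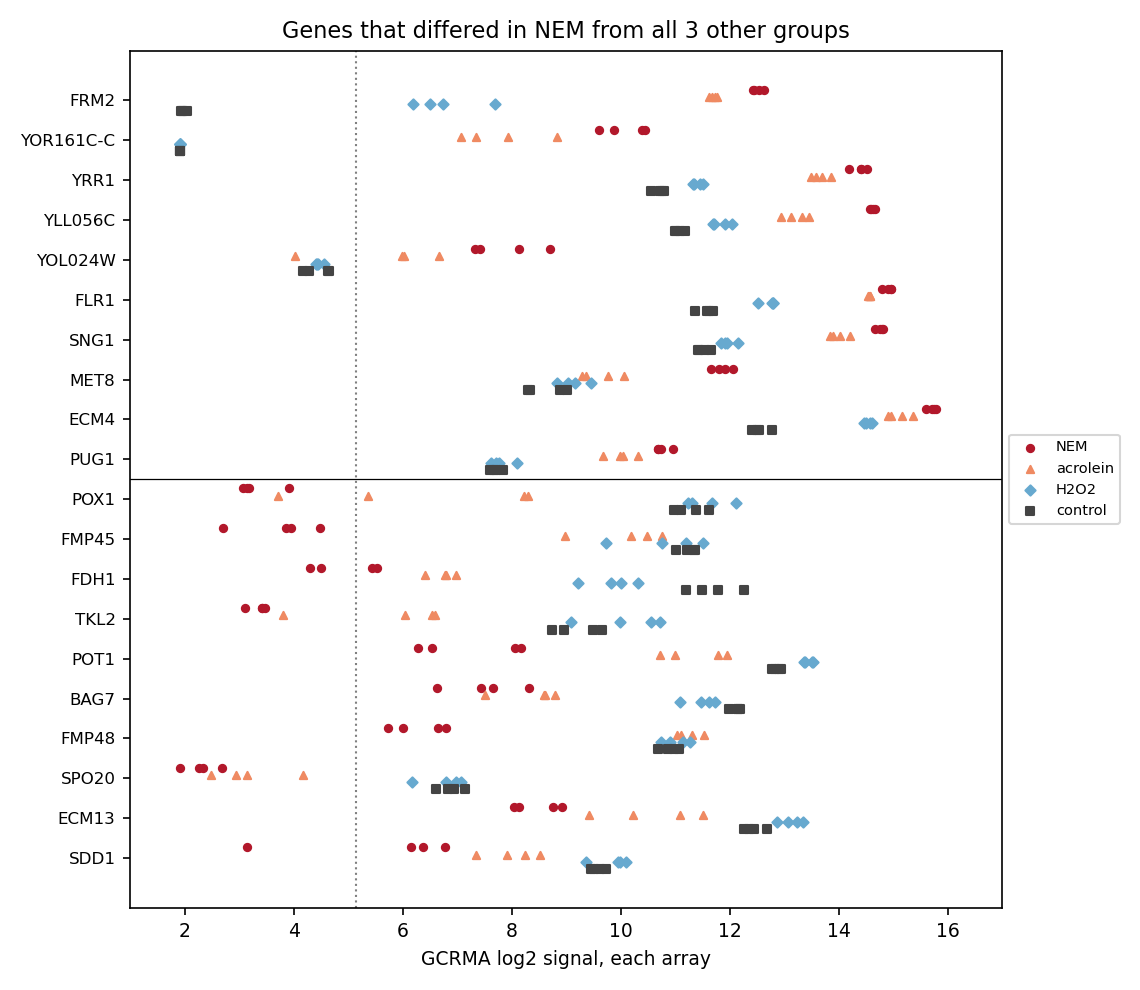
GCRMA log2 signal of each array of the NEM, acrolein, H2O2 and control groups (4 arrays each, rows from top to bottom within a gene) for the 10 largest increases and 10 largest decreases against control among genes called against all 3 other groups in 1 direction, with the background limit of 5.15 dotted. FMP45 and FMP48 lie far lower on the NEM arrays than on all others, and FRM2 lies close to acrolein but above it.

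Of 29 genes of the glyoxylate cycle, gluconeogenesis and fatty acid oxidation, 2 were higher and 21 lower with NEM than with H2O2 (median -1.14), and of 11 glycerol genes 0 were higher and 11 lower. Of 32 iron regulon genes 24 were lower and 2 higher with NEM than with H2O2, with a median of -0.77. Respiratory complex and ATP synthase genes were lower in 33 of 39 and higher in 1, with a median of -0.42. Against acrolein these lists went both ways. Respiratory genes were higher with NEM in 8 and lower in 4 (median 0.08), and glyoxylate, gluconeogenesis and fatty acid genes in 12 and 9 (median 0.17). Glycerol genes gave 4 and 3 (median -0.01), and iron regulon genes 10 and 8 (median 0.06). Without acrolein replicate 1 these counts were 7 and 5, 9 and 9, 3 and 3, and 10 and 8. SRX1 read 12.79, 12.39, 12.73 and 12.82 with NEM, against 15.52, 15.54, 15.66 and 15.68 with H2O2, a difference of -2.92 ± 0.09 (adjusted p = 5.64e-11). Of the 13 thioredoxin and peroxiredoxin genes 8 were lower and 1 higher with NEM than with H2O2. Heat shock chaperones were higher with NEM in 16 of 32 and lower in 2.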

How the data were processed

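Total RNA was hybridised to 16 Affymetrix yeast arrays, 4 per group. The authors deposited log2 values, made with GCRMA per the submitters' processing notes, which name no version. As general background, GCRMA is a background correction by probe sequence with a summary over the probes of a set, which can compress low and high signals; its settings are not given in the sources used here. Array values carry no counts, so the number of arrays limits the precision.

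Probe sets were named through the platform annotation, with 12 symbols updated from RefSeq (1 probe set listed several genes and was left unnamed). Of 10928 probe sets, 213 control and reporter sets and 1747 for another yeast species were left out, and the brightest of several probe sets stood for a gene. No sequence or genome coordinate was used here.

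limma 3.58.1 (R 4.3.3) fitted group means over all 16 arrays with an empirical Bayes prior, and p-values were adjusted by Benjamini-Hochberg over 5771 probe sets; the code was tested on simulated data. Exact permutation tests compared the RNA checks. The replicate numbers in the array titles pair NEM and control arrays, since residuals of same-numbered arrays correlated at 0.32 to 0.56 in every pair, and NEM and acrolein arrays at 0.32 to 0.44. Those of NEM and H2O2 arrays correlated at 0.47 and 0.57 for numbers 3 and 4, but at -0.18 and -0.14 for numbers 1 and 2. NEM replicate 1 correlated at 0.48 with H2O2 replicate 2, and NEM replicate 2 at 0.44 with H2O2 replicate 1. Numbers 1 and 2 thus do not pair the H2O2 arrays as titled, and the cause was not tested. The fit without the block is reported, so its standard errors and p-values do not use the pairing of NEM and control arrays. Fits that use it are given among the alternatives. Named were the 15 largest changes each way against control and the 8 largest against each other treatment, among called genes whose arrays did not overlap. Also named were the 10 largest particular to NEM, up to 6 members of each list by size with up to 2 against the majority, and a fixed set of stress and marker genes. The text gives a selection of these, and 1 result is not reported here. Members and lists were chosen with earlier results of these data known. Genes outside this rule were chosen for their role after their values were seen: ADH4, AFT1, AHP1, ATP1, CLB2, CLN2, COX4, CYS3, CYS4, DUG2, DUG3, FET3, FTR1, HBN1, HIS2, HSP104, HSP12, HUG1, ICL1, ILV3, LEU1, LEU4, MET10, MET14, MET2, MET28, MET3, MET30, MET32, MFA1, MLS1, MUP1, NBP35, OPT1, PDI1, PDR16, PDR5, PUP1, QDR1, RPT3, TPS1, TRR2, TSA1, YNL134C, YRM1, ZPS1, ZRC1 and ZWF1. Alternatives covered the replicate block, the arrays fitted, the prior, array weights, normalization, filters, the floor, probe set choice, the threshold and each array left out.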

Additional observations from a re-analysis of the deposited data

Results flagged for a closer look

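In 27 of 459 groups of 4 arrays examined, 1 array stood apart from the other 3 of its group by Dixon's test at the 95% level, which chance gives in about 1 of 20 groups. NEM replicate 1 stood apart for FRE5 at 5.05 (the others at 6.18 to 6.33), GPX2 at 14.29 (the others at 13.96 to 13.98), TRX3 at 11.64 (the others at 12.07 to 12.15) and UBC5 at 10.22 (the others at 10.67 to 10.76), as log2 signals. NEM replicate 2 stood apart for GPD2 at 11.34 (the others at 11.54 to 11.56), as log2 signals. NEM replicate 3 stood apart for DUG2 at 13.33 (the others at 13.46 to 13.48) and TRX2 at 15.21 (the others at 15.35 to 15.38), as log2 signals. NEM replicate 4 stood apart for DUR3 at 11.93 (the others at 11.17 to 11.24) and FMP16 at 11.08 (the others at 11.42 to 11.47), as log2 signals. Control replicate 1 stood apart for ERG1 at 12.51 (the others at 12.78 to 12.82), IDP2 at 13.05 (the others at 13.75 to 13.88), MET10 at 13.12 (the others at 13.01 to 13.02), NDE2 at 10.87 (the others at 11.19 to 11.25), OPT1 at 12.16 (the others at 11.83 to 11.87), PHO4 at 11.07 (the others at 10.75 to 10.78), RPN4 at 13.854 (the others at 13.837 to 13.838), TRX2 at 14.954 (the others at 15.001 to 15.003) and ZPS1 at 11.19 (the others at 11.27 to 11.28), as log2 signals. Control replicate 2 stood apart for SRX1 at 9.77 (the others at 9.48 to 9.51), SUE1 at 13.20 (the others at 12.38 to 12.51) and TIS11 at 12.83 (the others at 13.33 to 13.41), as log2 signals. Control replicate 3 stood apart for DAL81 at 10.40 (the others at 10.84 to 10.90), DCI1 at 11.09 (the others at 10.48 to 10.57), HXT9 at 5.60 (the others at 5.33), SUL2 at 8.45 (the others at 9.02 to 9.09) and YKL070W at 5.28 (the others at 3.77 to 4.03), as log2 signals. The 3′ minus 5′ signal of control replicate 2 was 0.724, and the other control arrays lay at 0.595 to 0.601. Among 64 control probe sets left out of the tests, 4 were higher on every NEM array than on every control array, all for ribosomal RNA. Only this direction was looked for, and probe sets lower on every NEM array were not counted. The 25S rRNA tile with the letter d averaged 14.63 in the NEM arrays and 11.92 in the control arrays. The 25S rRNA tile with the letter e averaged 15.80 in the NEM arrays and 15.65 in the control arrays. The 3′ probe set of 25S rRNA averaged 15.73 in the NEM arrays and 15.55 in the control arrays. The probe set of 5.8S rRNA averaged 15.44 in the NEM arrays and 15.20 in the control arrays. The part of ribosomal RNA in the results was not tested beyond the fit with it as a covariate.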

How the results depend on the processing

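The counts of probe sets called against control stayed within 1.5 times under every alternative run, from 1194 to 1699 upward and from 1520 to 1997 downward over the alternatives other than leaving out 1 array, and from 1408 to 1461 upward and 1737 to 1807 downward with 1 array left out. With the replicate number as a block over all 16 arrays, where numbers 1 and 2 do not pair the H2O2 arrays as titled, 1675 were called higher and 1973 lower. In the paired fit of the NEM and control arrays alone 1699 were higher and 1952 lower, ADH4 was called and HSP104 was not. The block over all arrays brought the called ribosomal protein genes to 34 (36 when the NEM and control arrays were fitted alone, an alternative chosen after seeing the data) and called HUG1. It changed no other call against control whose main-fit value is given here. At an adjusted p under 0.01, 926 probe sets were lower than with acrolein, 322 were particular to NEM upward, and called members numbered 7 for glycolysis and fermentation, 10 for ribosomal proteins and 12 for purine and one-carbon genes. Ribosomal RNA as a covariate gave 36 ribosomal protein genes. Copper genes called numbered 8 with array weights and 8 in the blocked fit of the 8 arrays alone. CLN2 and PDI1, which were not called, changed sign. CLN2 was at 0.0235 with quantile normalization, 0.0104 with the ribosomal RNA covariate, 0.0117 without acrolein replicate 1 and NEM replicate 4, and between -0.166 and 0.0255 with 1 array left out. PDI1 was at -0.0063 without that pair, and between -0.011 and 0.0376 with 1 array left out. LEU2, at the lowest value on all 8 arrays, differed by 0.00. Over lists and alternatives, 32 of 1008 list medians against control moved by at least their SD over the NEM arrays. Over genes called against acrolein and alternatives, the stricter threshold among them, 159 of 3143 calls were lost. The causes were not tested. Calls against control of AHP1, CBF1, CLN1, DAL80, HSP104, MSN2, PUT4, TRR2 and TRX3 were lost without at least 1 single array, and those of ADH4, ATP1 and HUG1 were gained, as given above. No separate cultures are documented, and signal near the background limit leaves only bounds.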

Other observations

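Further gene lists stand against the shares over all probe sets, 26.5% up and 32.2% down, and the counts of the phosphate list were near them. The cell wall list held fewer falls, and the autophagy list fewer rises, than these shares. Of 18 tested genes of the DAN, TIR and PAU families, mannoproteins of the cell wall linked to anaerobic growth, 12 rose and 0 fell, with a median of 0.55. TIR4, whose probe set is specific, read 11.69, 11.55, 11.73 and 11.79 in the NEM arrays, against 10.34, 10.05, 10.03 and 10.23 in the control arrays, a rise of 1.53 ± 0.10 (limma adjusted p = 1.62e-08), and most PAU probe sets match several near-identical genes. The same 18 genes were lower with NEM than with acrolein in 14 and higher in 0 (13 and 0 without acrolein replicate 1). Among 40 tested cell wall integrity genes 14 rose and 7 fell. KTR2, a mannosyltransferase, rose by 1.79 ± 0.07 and GSC2, a stress-induced glucan synthase subunit, by 1.23 ± 0.08, and CWP1, a wall mannoprotein, fell by 1.81 ± 0.12.

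Of 18 tested thiamine and vitamin B6 genes 3 rose and 8 fell, with THI2, an activator of thiamine synthesis, at -1.61 ± 0.21. Of 33 autophagy genes 5 rose and 13 fell. ATG1, the kinase that starts autophagy, rose by 1.47 ± 0.06, and ATG19, a cargo receptor, fell by 1.73 ± 0.09. Ergosterol and mevalonate genes gave 3 up and 13 down of 28, with ERG1, squalene epoxidase, at -0.94 ± 0.09. Phosphate genes gave 5 up and 9 down of 22 tested, with PHO4, their activator, at -1.03 ± 0.31. Of 9 tested lysine genes 5 rose and 0 fell, LYS20, homocitrate synthase, by 0.88 ± 0.13.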
